A study of Zea mays with 12 samples.

Results

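The low-temperature response of maize line 55 (Zao8-3), the low-temperature-resistant line of the comparison, was described from 6 of the 12 RNA-seq libraries of the study. These were the 3 CT_55 and the 3 LT_55 libraries, chosen by line and temperature alone. Seeds were imbibed for 6 h at 25 °C and then kept on germination paper for 2 h at 25 °C (CT_55) or at 10 °C (LT_55), and RNA was taken from isolated embryos. The other 6 libraries hold the same treatments of the sensitive line 102 (Ji853) and entered only the estimate of the spread and the comparison of the lines. Each line is 1 inbred genotype, and CT_55 seeds stayed at 25 °C throughout, so both groups are imbibed embryos. The deposited table lists 33589 genes on B73 RefGen_v4 with a read count and an FPKM value (fragments scaled by transcript length and library depth) in each library. CT_55 libraries held 44028579 to 57433166 counts and LT_55 libraries 57292988 to 67873652.

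A maize embryo at this stage has taken up water and restarts translation and respiration largely from messengers stored in the dry seed. Plants exposed to low temperature are known to switch on DREB1/CBF factors of the AP2/ERF family, which bind the dehydration-responsive element in front of cold-responsive genes such as those of dehydrins and other LEA proteins. Calcium sensors, protein kinase cascades, abscisic acid and jasmonate signals and changes of membrane lipids are further parts of the known cold response, studied mostly in green seedlings and in Arabidopsis.

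The libraries were first compared with each other and with embryo markers. Correlations of log2 CPM across genes, which are not independent replicates, were 0.9713 to 0.9762 among the CT_55 libraries and 0.9705 to 0.9822 among the LT_55 libraries. The first principal component of the 6 libraries (33.4% of the variance) placed both libraries of replicate 3 on one side, at 31.86 for CT_55 and 68.2 for LT_55, and did not separate the temperatures. CT_55 replicate 1 lay alone at 59.76 on the second component (21.4%). The summed FPKM of 6 oleosin genes, which coat oil bodies in embryo and aleurone, was 5706 to 6625 in CT_55 and 5709 to 6417 in LT_55. That of 24 LEA and Vp1 genes was 14730 to 16050 and 14510 to 15740. Zeins, the storage proteins of the endosperm, summed to 25.42 to 43.26 and 27.13 to 36.28, and 18 aleurone genes to 77.64 to 97.31 and 77.55 to 110.0. The 3 starch synthesis genes of the endosperm list summed to 452.9 to 528.6 in CT_55 and 472.9 to 536.5 in LT_55, and 4 globulin-1 and vicilin genes to 5037 to 6014 and 4810 to 6084. The ranges of both temperatures overlapped in each of these marker lists. The 19 genes of photosynthetic tissue summed to 46.6 to 52.13 in CT_55 and 43.85 to 45.56 in LT_55, without overlap.

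Few genes passed a test adjusted over all genes. The genes tested were the 22985 that reached 0.5 FPKM in 3 or more of all 12 libraries. Of these, 10 (0.0435%) were downregulated and 2 (0.0087%) upregulated in LT_55 relative to CT_55, where a call took a difference of 1.5-fold or more and a Benjamini-Hochberg adjusted p-value below 0.05 over the 22985 genes in edgeR's quasi-likelihood test. The median log2 fold change was 0.0026, and 91.5% of the genes differed by less than 1.5-fold. An unadjusted p-value under 0.05 was reached by 1019 genes (4.43%), no more than the 5% that this threshold passes where nothing differs. Among all tested genes 7.23% had no overlap between the 3 CT_55 and the 3 LT_55 libraries, 815 lower and 846 higher at 10 °C, and all 12 called genes were among them. Log2 fold changes above 0 made up 52.6% of the tested genes. Removing LT_55 replicate 2 left 0 genes called (1636 at an unadjusted p-value under 0.05), and removing CT_55 replicate 3 gave 7 upregulated and 52 downregulated genes. A fit to the 6 libraries of line 55 alone called 0 genes (585 at an unadjusted p-value under 0.05), whereas DESeq2 on all 12 libraries called 27 upregulated and 116 downregulated genes, among them the same 12.

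Of the 10 downregulated genes, 7 had a mean FPKM above 1 over the 6 libraries. In bulk RNA, fewer cells of a type and less RNA per cell cannot be told apart. LOC100279536 (chromosome 8, 172403419 to 172405357), annotated as a member of the cytochrome P450 superfamily of oxygenases, had FPKM values of 6.36, 3.99 and 3.53 in the CT_55 libraries and of 0.677, 0.278 and 0.373 in the LT_55 libraries. Every LT_55 library thus lay far below every CT_55 library. The log2 fold change was −3.38 (SE 0.35, adjusted p = 0.0115), and among the 6 fits without 1 line 55 library the call was lost in 1, that without LT_55 replicate 2 (adjusted p = 0.0783). LOC100281434 (chromosome 6, 172092066 to 172094046) is annotated as mitochondrial chaperone BCS1, an AAA-ATPase that in yeast inserts the iron-sulfur protein into respiratory complex III. It had 60.7, 30.3 and 26.5 FPKM in CT_55 and 7.45, 7.44 and 5.62 in LT_55, so that the 3 cold libraries were close together and CT_55 replicate 1 stood highest. The log2 fold change was −2.53 (SE 0.29, adjusted p = 0.0141), with adjusted p = 0.0708 without LT_55 replicate 1 and 0.0839 without LT_55 replicate 2. Another AAA-ATPase gene, LOC103644195, chosen after its values were seen, had 48.8, 26.5 and 10.2 FPKM in CT_55 and 3.35, 3.77 and 1.39 in LT_55. It missed the adjusted threshold narrowly (log2 fold change −3.34, SE 0.52, adjusted p = 0.0501).

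The genes gst2 and opr1 belong to families that handle reactive compounds. The gene gst2 (chromosome 10, 90384434 to 90385679) encodes glutathione S-transferase 4, an enzyme that joins glutathione to herbicides and other electrophiles. It was the most abundant of the called genes, with 135, 61.4 and 24.5 FPKM in CT_55 and 10.1, 7.53 and 4.86 in LT_55. The CT_55 libraries differed among themselves several fold and still stayed above all LT_55 libraries. The log2 fold change was −3.31 (SE 0.49, adjusted p = 0.0417), and the call was kept in 1 of the 6 fits that left out 1 line 55 library, the one without CT_55 replicate 3 (adjusted p = 0.00184), against 0.0568 to 0.137 in the other 5. The gene opr1 (chromosome 9, 6927841 to 6929381) encodes a 12-oxo-phytodienoate reductase, a flavoenzyme that reduces oxylipins. Its FPKM was 7.58, 3.77 and 2.36 in CT_55 and 0.677, 0.538 and 0.684 in LT_55, which did not overlap. The log2 fold change was −2.84 (SE 0.42, adjusted p = 0.0417), again called in 1 of 6 such fits, without CT_55 replicate 3 (adjusted p = 0.00581), with 0.0546 to 0.191 in the others.

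The remaining 3 genes of this group act in other processes. LOC103635063 (chromosome 8, 35609151 to 35610605) is annotated as DOG1-like 4, a relative of Arabidopsis DOG1, which controls seed dormancy. It had 10.7, 4.52 and 2.43 FPKM in CT_55 and 0.519, 0.477 and 0.336 in LT_55, with no overlap and a spread in CT_55 far wider than in LT_55. The log2 fold change was −3.72 (SE 0.51, adjusted p = 0.0335), and leaving out any 1 LT_55 library ended the call (adjusted p = 0.113 without replicate 1, 0.135 without replicate 2 and 0.122 without replicate 3). LOC100284440 (chromosome 4, 199294040 to 199302326), annotated only as an uncharacterized protein but placed by KEGG in protein processing in the endoplasmic reticulum, had 1.85, 3.27 and 5.90 FPKM in CT_55 and 0.223, 0.197 and 0.359 in LT_55. Here CT_55 replicate 3 was the highest library, opposite to gst2 and LOC103635063. The log2 fold change was −3.80 (SE 0.48, adjusted p = 0.0314), with adjusted p = 0.103 without LT_55 replicate 1 and 0.116 without LT_55 replicate 2. LOC100272434 (chromosome 2, 46057887 to 46059622), a RING zinc finger protein of a family rich in ubiquitin ligases, rested on 25, 41 and 25 counts in CT_55 and 13, 10 and 10 in LT_55. It had 1.67, 2.12 and 1.35 FPKM in CT_55 and 0.678, 0.451 and 0.418 in LT_55. The groups did not overlap, and the difference was smaller than in the other 6 genes (log2 fold change −1.72, SE 0.26, adjusted p = 0.0417). Division of its counts by 4 ended the call (adjusted p = 0.3). It was called in 1 of the 6 fits without a library, that without CT_55 replicate 3 (adjusted p = 0.0133), and the other 5 gave 0.0924 to 0.137.

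**Figure D1:**
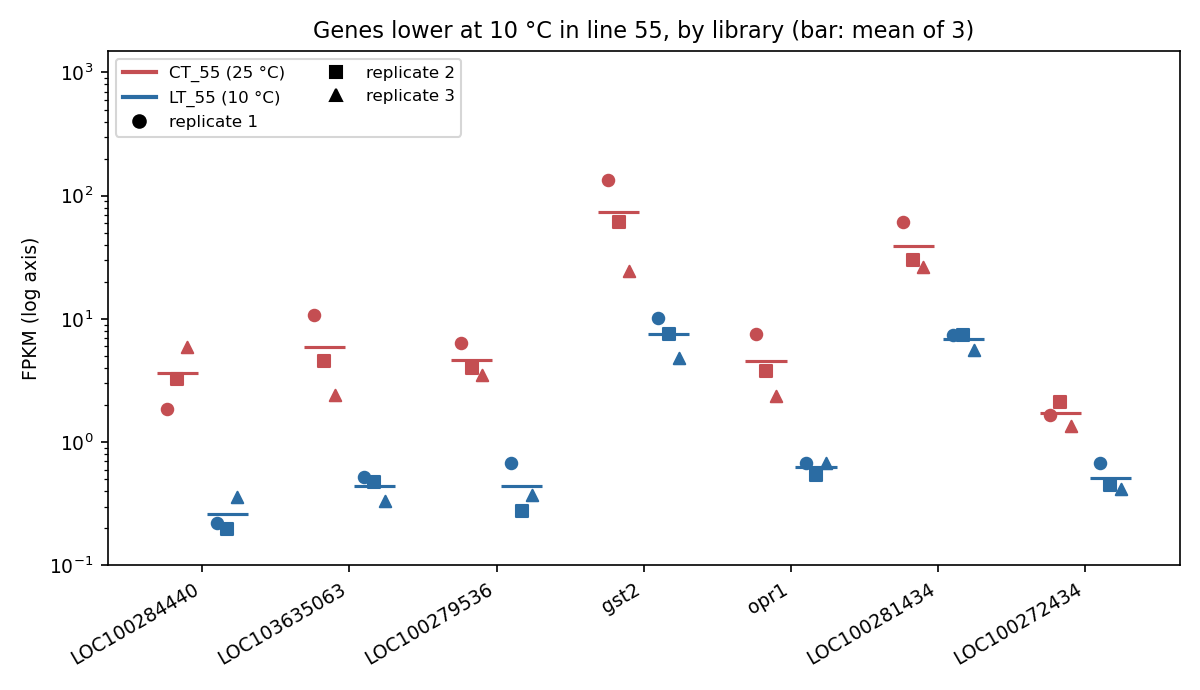
FPKM (log axis) of the 7 downregulated genes whose mean FPKM exceeded 1, for each of the 3 CT_55 libraries (red) and 3 LT_55 libraries (blue), with the replicate shown by the marker and the mean of 3 by the bar. In each gene the LT_55 libraries lie below the CT_55 libraries, and in gst2 the CT_55 libraries run from 24.5 to 135.

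The other 5 called genes had a mean FPKM under 1, and 4 of them, which lay under 0.5 FPKM in every line 55 library and entered the test only through their level in line 102, had a group in which every library held 3 counts or fewer, so that the fold is a lower bound against 3 counts per library. LOC103642973 (chromosome 10, 149524962 to 149526044), a CCR4-associated factor 1 homolog of the deadenylases that shorten poly(A) tails, had 38, 61 and 79 counts at 25 °C (CT_55) and 0, 0 and 4 at 10 °C (LT_55) (log2 fold change −5.61, SE 0.84, adjusted p = 0.0417). It was called in 2 of the 6 fits without 1 library, with adjusted p = 0.0609 to 0.176 in the others, among them 0.0956 without CT_55 replicate 1, 0.0609 without CT_55 replicate 2, 0.176 without LT_55 replicate 1 and 0.137 without LT_55 replicate 2. LOC103636551 (chromosome 8, 175577029 to 175578804), a WRKY71 factor, had 8, 15 and 8 counts in CT_55 and 0 in each LT_55 library, at least 4.12-fold lower (adjusted p = 0.0335). LOC103644214 (chromosome 1, 295873221 to 295875721), annotated as argonaute 14 of the family that carries small silencing RNAs, was read 6, 4 and 4 times in CT_55 and not at all (0) in LT_55, at least 1.95-fold lower (adjusted p = 0.0417). The groups were separate in all 3. In a fit to the line 55 libraries alone LOC103636551 and LOC103644214 both had an adjusted p-value of 1, and that of LOC103642973 was 0.327.

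Both upregulated genes also entered the test only through line 102. LOC100382292 (chromosome 2, 59683529 to 59685310), annotated as discordia 1, which in maize helps orient the plane of cell division, had 0 counts in each CT_55 library and 9, 10 and 13 in LT_55, a level at least 2.88-fold higher (adjusted p = 0.0335). LOC103642103 (chromosome 10, 145314038 to 145315745), uncharacterized, had 0 counts in CT_55 and 14, 14 and 10 in LT_55, a level at least 3.47-fold higher (adjusted p = 0.0417). In line 102 both genes had a mean FPKM above 2 at either temperature, whereas in line 55 no library exceeded 0.214. Fitted in the line 55 libraries alone, LOC100382292 and LOC103642103 each had an adjusted p-value of 1. Without 1 library, LOC100382292, LOC103642103 and LOC103644214 were each called in 1 of 6 fits, that without CT_55 replicate 3, with adjusted p = 0.0505 to 0.0943, 0.0609 to 0.131 and 0.0505 to 0.135 in the others. LOC103636551 was called in 2 of 6, with 0.0632 to 0.0863 in the 4 without CT_55 replicate 1 or without any 1 LT_55 library. Counts of line 55 between 1 and 40 were multiples of 4 in 37.7% of cases, against 25.0% of the whole numbers in that range, so a small count may stand for fewer independent reads. After division of the counts by 4, 12 downregulated and 0 upregulated genes were called, 7 of them shared with the 12 above.

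Since so few genes passed the adjusted test, further genes were described at the looser threshold that the study used by default, a 1.5-fold difference with p below 0.05 before adjustment. It was passed by 442 genes in the lower direction (1.92% of the tested genes) and by 162 in the higher direction (0.705%). The unadjusted p-value of the edgeR test was under 0.05 in 4.43% of the tested genes, no more than the 5% passed where nothing differs. Of the 442 lower genes, 251 (56.8%) had no overlap between the groups, 209 had a mean FPKM of at least 1 over the 6 libraries and 56 a mean of at least 10. Of the 162 higher genes, 85 (52.5%) had no overlap, 42 had a mean FPKM of at least 1 and 3 a mean of at least 10. In 101 lower and 53 higher genes one group was at 3 counts or fewer in each library. The CT_55 libraries differed among themselves in the 56 more abundant lower genes. CT_55 replicate 1 was the highest of the 6 libraries in 47 of them (83.9%), against 1583 of 9781 tested genes of that level (16.2%). CT_55 replicate 3 was the lowest CT_55 library in 45, against 3291 of the 9781. Within replicate 3 alone, CT_55 stood above LT_55 in 52 of the 56, against 4975 of the 9781. The 56 genes were selected as lower in LT_55 in these same libraries. That selection itself raises the counts of 47 and 52, so the shares over all genes are no like baseline for them. The part of the difference between the CT_55 libraries in these genes was not tested. Without CT_55 replicate 1 the threshold was passed by 349 lower and 193 higher genes. The count of higher genes was 387 without CT_55 replicate 3 and 267 without LT_55 replicate 2.

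**Figure D2:**
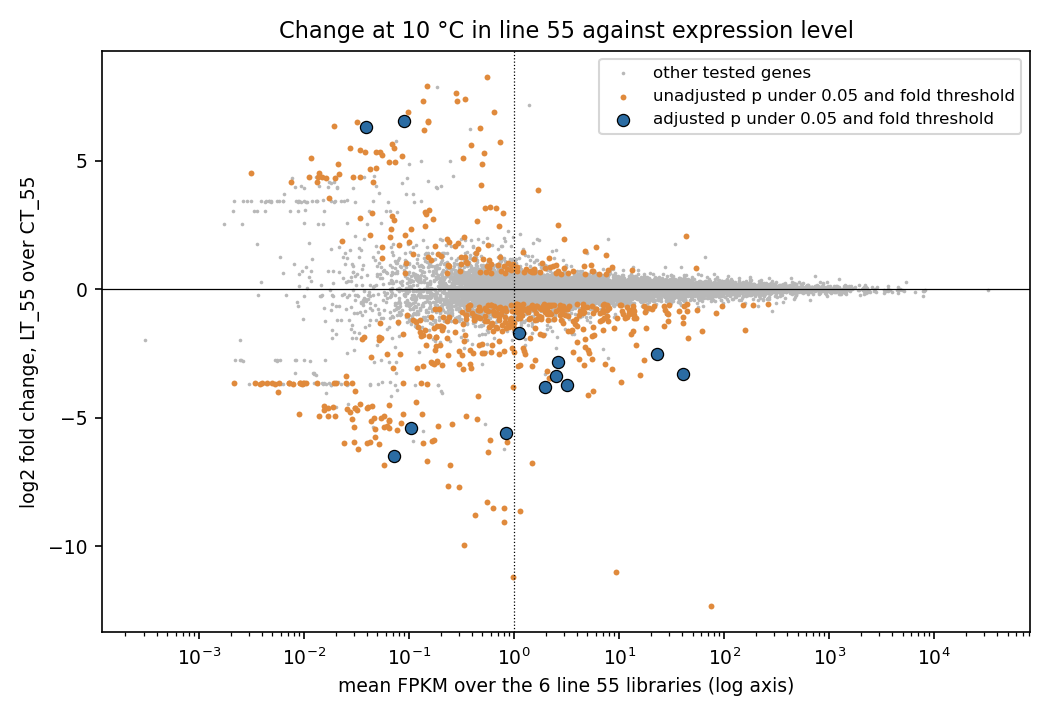
Log2 fold change of LT_55 over CT_55 against the mean FPKM over the 6 line 55 libraries (log axis), for those of the 22985 tested genes with a mean FPKM above 0. The 604 genes past the unadjusted threshold are in orange, except the 12 among them called at the adjusted threshold, which are in blue. The dotted line marks an FPKM of 1, and above it the genes below 0 (209 of the 442) outnumber those above 0 (42 of the 162).

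Glutathione S-transferases had the most lower members among the enzyme lists. Of 50 tested members, 6 were lower and 2 higher at the unadjusted threshold (12% and 4%), against 1.92% and 0.705% of all tested genes. In line 102, 11 members were lower and 0 higher. The median log2 fold change over the 50 in line 55 was −0.15. Without the replicate 3 libraries of line 55 its counts were 7 lower and 1 higher. After gst2 the clearest was gst31, with 27.3, 14.4 and 4.74 FPKM in CT_55 and 1.98, 2.36 and 1.13 in LT_55 (log2 fold change −3.10, SE 0.49, adjusted p = 0.0501). It had the same order of CT_55 libraries as gst2. The gene gst7 had 2.59, 2.56 and 0.636 FPKM in CT_55 and 0.415, 0.212 and 0.0815 in LT_55 (−3.0, SE 0.58, adjusted p = 0.144). GST 26 (LOC541839) was higher instead, with 3.98, 4.78 and 3.68 FPKM in CT_55 and 10.6, 11.5 and 10.2 in LT_55. Its groups did not overlap, and its log2 fold change of 1.33 (SE 0.43) had an adjusted p-value of 0.715. The neighbour of opr1 in function, opr2, had 12, 5.85 and 3.78 FPKM in CT_55 and 1.32, 1.18 and 0.75 in LT_55 (−2.74, SE 0.44, adjusted p = 0.0501). LOC103625869, annotated as an isoflavone 2'-hydroxylase and so a P450 like LOC100279536, had 13.0, 8.22 and 4.31 FPKM in CT_55 and 1.79, 2.09 and 1.07 in LT_55 (−2.37, SE 0.40, adjusted p = 0.067). These genes beyond gst2 were named after their values were seen.

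Transcription factors of 3 stress-related families were more often lower than higher. In the AP2/ERF and DREB list 7 of 78 tested members were lower (8.97%) and 0 higher, with a median of −0.11. The most abundant of the 7, DBP1c, encodes an isoform of DREB2A, which in Arabidopsis activates drought- and heat-responsive genes. It had 78.0, 71.3 and 62.4 FPKM in CT_55 and 41.7, 39.0 and 40.3 in LT_55, with narrow groups and no overlap (log2 fold change −0.82, SE 0.15, adjusted p = 0.0954). The 7 also include a pair annotated as DREB1A, the type that in Arabidopsis is induced by cold. LOC103633049 had 3.27, 1.76 and 1.10 FPKM in CT_55 and 0.46, 0.733 and 0.0588 in LT_55 (−2.30, SE 0.56, adjusted p = 0.324), and LOC100280778 had 2.11, 0.716 and 0.652 against 0.42, 0.524 and 0.187 (−1.62, SE 0.51, adjusted p = 0.672). The ethylene-responsive factor RAP2-6 (LOC103642747) had 59.1, 62.1 and 44.7 FPKM in CT_55 and 23.1, 20.9 and 35.4 in LT_55 (−1.07, SE 0.29, adjusted p = 0.507).

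WRKY factors, which bind the W-box of defence and stress genes, had 5 of 51 tested members lower (9.80%) and 0 higher in line 55. Over all tested genes 1.92% were lower and 0.705% higher. Of the 51 WRKY factors 39 lay below 0, with a median of −0.18. WRKY71 (LOC100279570) had 55.7, 38.8 and 29.0 FPKM in CT_55 and 15.8, 13.4 and 23.4 in LT_55 (log2 fold change −1.23, SE 0.30, adjusted p = 0.324). WRKY6 (LOC103649526) had 31.8, 23.1 and 22.7 FPKM in CT_55 and 14.6, 12 and 18.5 in LT_55 (−0.79, SE 0.18, adjusted p = 0.294). In both genes the groups stayed apart. NAC factors had 4 of 45 lower (8.89%) and 0 higher, with a median of −0.11, among them LOC103626984, a NAC domain protein 76 read 9, 4 and 12 times in CT_55 and 0 times in LT_55, at least 3.45-fold lower (adjusted p = 0.0853). LOC103626984 did not exceed 0.0855 FPKM in any line 55 library and entered the test only through its level in line 102. MYB factors had 0 of 97 past the threshold in either direction and a median of 0.00. Without the replicate 3 libraries of line 55, 1 MYB factor was lower and 1 higher, and the NAC factors had 5 lower and 1 higher. Their clearest member, MYBR32, had 4.83, 3.90 and 4.09 FPKM in CT_55 and 3.81, 3.59 and 3.24 in LT_55 (log2 fold change −0.28, SE 0.13, adjusted p = 1). In the small ZAT and C2H2 list 1 of 7 was lower, ZAT8 (LOC103637538), with 19.7, 16.8 and 10.7 FPKM in CT_55 and overlapping values of 8.21, 12.2 and 6.86 in LT_55 (−0.80, SE 0.26, adjusted p = 0.759).

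Hormone and calcium genes gave scattered differences, beside shares over all tested genes of 1.92% lower and 0.705% higher. PP2C 35 (LOC103625761), of the phosphatase family that holds abscisic acid signalling in check, had 6.83, 2.93 and 1.36 FPKM in CT_55 and 0.534, 0.49 and 0.185 in LT_55 (log2 fold change −3.19, SE 0.56, adjusted p = 0.0853). It was the 1 lower member of 72 in the abscisic acid list, which had 0 higher members and a median of 0.03. Without the replicate 3 libraries of line 55, 4 members of this list were lower. Cytokinin genes had 3 of 28 lower (10.7%) and 0 higher with a median of 0.02, and all 3 were glucosyltransferases, which conjugate the hormone with glucose (2 lower and 1 higher without replicate 3). The clearest, cytokinin-N-glucosyltransferase 1 (LOC100280143), had 14.4, 8.76 and 6.42 FPKM in CT_55 and 4.51, 4.92 and 4.25 in LT_55 (−1.12, SE 0.25, adjusted p = 0.253). TIFY5 (LOC100284291), of the family that includes the JAZ repressors of jasmonate signalling, was the 1 higher member of 27 in the jasmonate list, with 0.0499, 0 and 0.046 FPKM in CT_55 and 1.15, 1.16 and 0.546 in LT_55 (4.86, SE 1.38, adjusted p = 0.535), and that list had 0 lower members and a median of −0.08. Of 100 calcium sensors and kinases 2 were lower and 2 higher, with a median of 0.02. The calmodulin-binding protein LOC100279877 had 45.2, 31.9 and 39.9 FPKM in CT_55 and 21.5, 13.9 and 23.9 in LT_55 without overlap (−0.99, SE 0.21, adjusted p = 0.224).

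The KEGG signalling pathways had more lower than higher members, as had all tested genes (1.92% lower and 0.705% higher). Plant hormone signal transduction had 14 of 430 lower (3.26%) and 2 higher (0.465%), MAPK signaling 12 of 277 lower (4.33%) and 4 higher (1.44%), and plant-pathogen interaction 13 of 306 lower (4.25%) and 2 higher (0.654%). Their medians were −0.01, 0.00 and −0.01, so the members that passed the threshold sat within lists that did not shift as a whole. The tyrosine-sulfated glycopeptide receptor 1 (LOC103629615), a receptor kinase gene of the hormone pathway, had 81.4, 47.1 and 44.5 FPKM in CT_55 and 22.0, 18.5 and 27.8 in LT_55 (log2 fold change −1.34, SE 0.23, adjusted p = 0.0841). In MAPK signaling the lowest p-value belonged to LOC103627402, uncharacterized, read 6, 9 and 3 times in CT_55 and 0 times in LT_55, at least 2.43-fold lower (adjusted p = 0.242). At no more than 0.134 FPKM in line 55, LOC103627402 was tested only because of its level in line 102. Without the replicate 3 libraries of line 55 the higher members numbered 6, 2 and 5 in the 3 pathways, in the same order, and the lower ones 20, 18 and 15. Of the 125 genes in the receptor kinase list 1 was lower and 3 higher (median −0.03), a balance that turned to 5 lower and 1 higher without replicate 3. The lower one, LOC103630498, had overlapping values of 3.29, 0.959 and 4.52 FPKM in CT_55 and 0.901, 0.482 and 1.08 in LT_55 (−1.80, SE 0.44, adjusted p = 0.352). Among 176 U-box, RING and other E3 ligases, which tag proteins with ubiquitin, 1 was lower and 1 higher (median 0.00), or 3 and 2 without replicate 3. The list was matched on the words U-box, RING-H2 and E3 ubiquitin-protein ligase and so does not hold the called RING gene LOC100272434. ARI7 (LOC109945455) had 119, 61.9 and 33.6 FPKM in CT_55 and 21.9, 25.4 and 10.9 in LT_55 (−1.89, SE 0.42, adjusted p = 0.25).

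Genes for protective proteins known from cold and desiccation had 0 or 1 member per list past the threshold in each direction. Over all tested genes 1.92% were lower and 0.705% higher. LEA proteins and dehydrins had 1 of 22 higher and 1 lower (4.55% each), with a median of 0.00. The higher one, LOC103638483, had 0 counts in CT_55 and 4, 0 and 4 in LT_55 (adjusted p = 0.943) and was tested only because of its level in line 102. The lower one, dehydrin 13 (LOC100285266), had 0.703, 1.22 and 1.80 FPKM in CT_55 and overlapping values of 0.68, 0.715 and 0.668 in LT_55. Heat shock proteins and factors had 1 of 92 higher and 1 lower (1.09% each), with 61 of 92 below 0 and a median of −0.10. Heat shock factor HSF6 was the lower one, with 6.93, 5.36 and 5.67 FPKM in CT_55 and 3.39, 2.58 and 3.42 in LT_55 (log2 fold change −0.94, SE 0.22, adjusted p = 0.281). Of 20 trehalose and raffinose family genes, which make protective sugars, 0 passed the threshold, and the median of 0.17 was the highest of the lists. The trehalose-phosphate phosphatase LOC100285860 had 1.70, 1.93 and 2.47 FPKM in CT_55 and 2.68, 2.42 and 3.70 in LT_55, with LT_55 replicate 2 below CT_55 replicate 3 (0.52, SE 0.18, adjusted p = 0.898). Without the replicate 3 libraries of line 55, 0 LEA genes passed in either direction, 2 heat shock genes were lower and 2 trehalose or raffinose genes higher. Of 15 desaturase genes 0 passed (median −0.09). The lowest p-value there belonged to LOC103633372, a phytoene desaturase of carotenoid synthesis rather than a fatty acid enzyme, with FPKM of 0, 0.206 and 0.0335 in CT_55 and 0, 0.435 and 0.567 in LT_55. It too was tested only because of its level in line 102. RNA-binding and cold shock proteins had 0 of 52 past the threshold and a median of 0.04, and the glycine-rich, abscisic acid-inducible LOC100194217, with the lowest p-value of the list, had 1220, 924 and 976 FPKM in CT_55 and 916, 876 and 774 in LT_55 (−0.29, SE 0.11, adjusted p = 0.934).

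Housekeeping lists were close to 0. The cytosolic ribosome had 2 of 510 lower and 3 higher (median −0.03), protein processing in the endoplasmic reticulum 7 of 399 lower and 4 higher (0.00), the spliceosome 2 of 331 lower and 1 higher (−0.01) and oxidative phosphorylation 3 of 181 lower and 1 higher (0.00). Glycolysis had 1 of 186 lower and 0 higher (0.02), DNA replication 1 of 110 lower and 3 higher (0.10), and the circadian clock 0 of 120 lower and 1 higher (0.07). Histones had 2 of 33 lower (6.06%) and 0 higher, and 28 of the 33 lay below 0 with a median of −0.19. Histone H2A (LOC100501984) had 2.89, 2.36 and 2.48 FPKM in CT_55 and 1.18, 2.13 and 1.40 in LT_55 (log2 fold change −0.73, SE 0.27, adjusted p = 0.944). In 6 further lists, 0 to 2 genes were lower and 0 or 1 higher. These were peroxidases (2 of 29 lower, 1 higher, median −0.09), gibberellin genes (2 of 24 lower, −0.07), auxin genes (1 of 40 lower, −0.02), cell wall genes (1 of 53 lower, −0.10), aquaporins (0 of 19, −0.07) and ethylene synthesis (0 of 6, −0.16). Without the replicate 3 libraries of line 55 several of these counts grew. The ribosome then had 8 lower and 6 higher genes, the spliceosome 7 lower, the circadian clock 3 lower, the endoplasmic reticulum list 11 lower and DNA replication 2 lower and 5 higher. Auxin genes then had 2 lower, ethylene synthesis 1 and cell wall genes 0. Their clearest members stayed far from the adjusted threshold. They were peroxidase 56 (LOC100285877, adjusted p = 0.378), a gibberellin 2-beta-dioxygenase (LOC103651195, 0.512), SAUR12 (LOC103627798, 1), xyloglucan endotransglucosylase 23 (LOC100284736, 0.512), the tonoplast aquaporin tip1 (1) and the ACC oxidase gene ACO31 (1). The lowest p-values of the other lists belonged to LOC100193692 for the ribosome (adjusted p = 0.203), LOC100277106 for the clock (0.546), LOC103634873 for the spliceosome (0.203), LOC100500983 for DNA replication (0.458) and LOC103647441 for oxidative phosphorylation (0.928). LOC100193692, LOC100500983, LOC103627798 and LOC103651195 lay under 0.5 FPKM in every line 55 library and so entered the test only through line 102. LOC103634873, LOC100284736, LOC100285877 and LOC103647441 reached 0.5 FPKM in fewer than 3 line 55 libraries and so also needed line 102 to enter it.

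**Figure D3:**
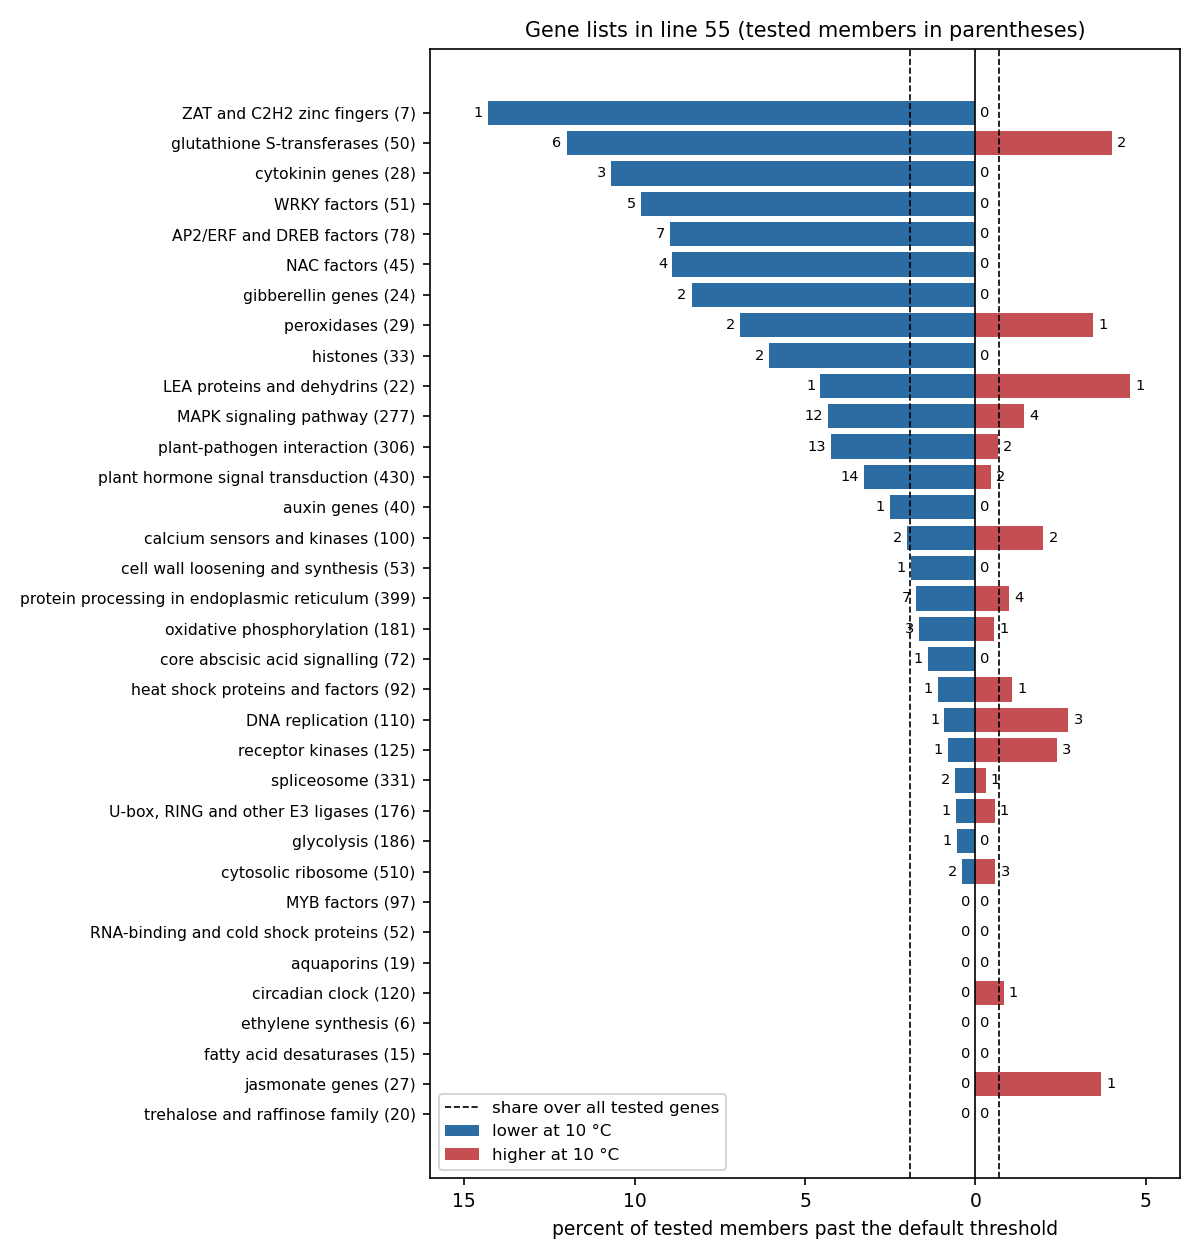
Percent of the tested members of each of 34 gene lists past the unadjusted threshold, lower (blue, left) and higher (red, right) at 10 °C in line 55, with the number of genes beside each bar and dashed lines at the shares over all tested genes (1.92% and 0.705%). Glutathione S-transferases, cytokinin genes and the WRKY, AP2/ERF and NAC factors lie between 8.89% and 12% lower, and the longest bar, at 14.3%, is 1 gene of 7.

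At the unadjusted threshold, genes with higher levels at 10 °C were fewer than those with lower levels. LOC103648089, uncharacterized, had the lowest adjusted p-value among those above 1 FPKM, with 33.6, 49.2 and 34.6 FPKM in CT_55 and 69.5, 66.9 and 72.9 in LT_55. The cold libraries were close together and all above the controls (log2 fold change 0.82, SE 0.14, adjusted p = 0.0652). HGA4 (LOC100282941) had 2.50, 2.44 and 2.50 FPKM in CT_55 and 6.75, 7.25 and 6.72 in LT_55 (1.47, SE 0.27, adjusted p = 0.0954). Callose synthase 7 (LOC103638967), of the enzymes that lay down callose in cell walls and at plasmodesmata, had 1.19, 1.42 and 1.48 FPKM in CT_55 and 1.88, 2.69 and 1.99 in LT_55 (0.67, SE 0.14, adjusted p = 0.203). The gene sfr2 encodes the galactolipid galactosyltransferase SFR2, which in Arabidopsis remodels chloroplast membranes during freezing. It had 1.82, 0.631 and 1.44 FPKM in CT_55 and 2.70, 1.62 and 4.74 in LT_55, with overlap (1.22, SE 0.41, adjusted p = 0.787). Cytosolic fructose-1,6-bisphosphatase (LOC100284739), which acts in sucrose synthesis, stayed below the fold threshold with 17.5, 20.8 and 22.0 FPKM in CT_55 and 29.0, 26.6 and 27.2 in LT_55 (0.45, SE 0.09, adjusted p = 0.21). Apart from LOC100284739, the genes of this paragraph were picked after their values were seen, and none of them passed the adjusted threshold. The same holds for the DREB1A, RAP2-6, WRKY6, WRKY71 (LOC100279570), HSF6, dehydrin 13, antenna and LOC111590455 genes.

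KEGG pathways and GO terms shifted little. Of 116 pathways with at least 15 tested genes, 109 had a median log2 fold change within 0.1 of 0, as had 835 of 906 GO terms with 15 to 500 tested genes. Medians above 0 were led by brassinosteroid biosynthesis (0.12, 15 genes), DNA replication (0.10, 110 genes) and sulfur metabolism (0.09, 46 genes) among pathways, and by nucleotide-sugar transmembrane transporter activity (0.18, 15 genes), histone methylation (0.17, 18 genes) and cellular amino acid biosynthetic process (0.16, 15 genes) among GO terms. Next came GPI-anchor biosynthesis (0.07, 35 genes) and the plant circadian rhythm (0.07, 120 genes), and among GO terms epigenetic negative regulation of gene expression (0.15, 16 genes) and the integral component of the Golgi membrane (0.14, 17 genes). In the 3 leading GO terms 0 genes passed the threshold in either direction. Terms share genes, and no term was tested as a set.

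The lowest pathway median was that of photosynthesis antenna proteins, the light-harvesting chlorophyll a/b binding proteins of the chloroplast. In line 55, 19 of its 21 tested genes lay below 0 (median −0.45), against 47.4% of all tested genes. In 7 of the 21 every LT_55 library lay below every CT_55 library, and 1 passed the unadjusted threshold. Over all 22985 tested genes, 815 were lower without overlap. A mean FPKM of at least 1 was reached by 12 of the 21, of which 11 lay below 0 (median −0.35). The most abundant, LOC100191715 (14.2 FPKM) and si486069e02 (10.0 FPKM), had log2 fold changes of −0.06 and −0.02. The summed FPKM of the 21 genes was 64.5, 54.5 and 60.7 in CT_55 and 51.6, 50.9 and 53.0 in LT_55, without overlap. The member that passed was lhcb5, with 0.798, 0.325 and 0.616 FPKM in CT_55 and 0.15, 0.301 and 0.289 in LT_55 (log2 fold change −1.22, SE 0.40, adjusted p = 0.737). It reached 0.5 FPKM in fewer than 3 line 55 libraries and so needed line 102 to enter the test. LOC100281248, a chlorophyll a-b binding protein 1, had 3.97, 3.80 and 5.12 FPKM in CT_55 and 2.78, 3.43 and 2.69 in LT_55 (−0.54, SE 0.17, adjusted p = 0.712). In line 102 only 3 of the 21 lay below 0 (median 0.28), and the sum was 54.6 to 59.9 in CT_102 and 64.7 to 70.3 in LT_102. In edgeR's quasi-likelihood test, 4 of the 21 differed between the lines at an unadjusted p-value under 0.05, against 6.33% of all tested genes. At an adjusted p-value under 0.05, 0 of them did. Genes of one pathway are not independent replicates. The GO terms photosynthesis, light harvesting in photosystem I (median −0.45, 23 genes) and pigment binding (−0.43, 22 genes) had 2 and 1 genes lower, and the KEGG pathway photosynthesis had a median of −0.14 with 5 of 67 genes lower and 1 higher.

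**Figure D4:**
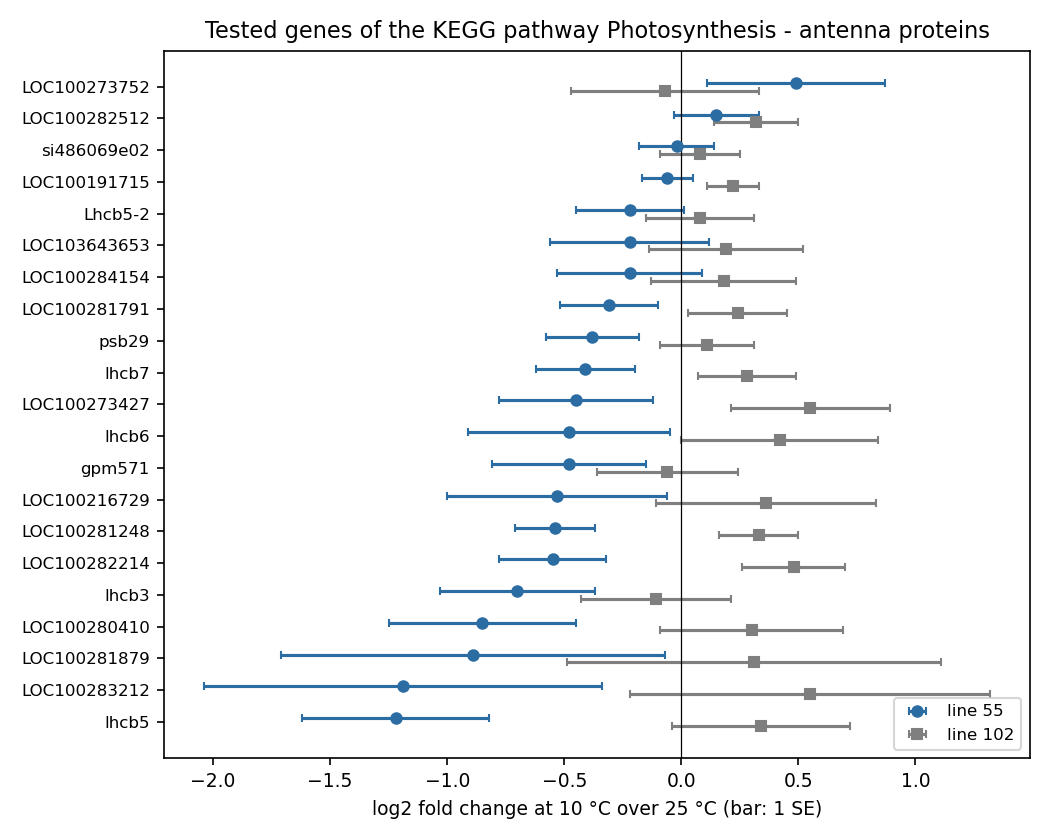
Log2 fold change of LT over CT in line 55 (circles) and line 102 (squares) for the 21 tested genes of the KEGG pathway photosynthesis - antenna proteins, with bars of 1 SE. In line 55, 19 of the 21 points lie below 0, in line 102 only 3, and 17 genes lie below 0 in line 55 and above 0 in line 102. Of the 21, 4 differed between the lines at an unadjusted p-value under 0.05 in edgeR's quasi-likelihood test, and 0 at an adjusted one.

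The lowest GO median, −0.48, was that of regulation of cellular respiration. It had 8 of 50 tested genes lower (16.0%, against 1.92% over all tested genes) and 1 higher. Most members are described by matches to soybean hypothetical proteins, and the term is that of yeast TAR1, a small protein encoded antisense to the large ribosomal RNA. The most significant, LOC111590455, had 881, 707 and 644 FPKM in CT_55 and 548, 622 and 512 in LT_55 (log2 fold change −0.42, SE 0.13, adjusted p = 0.635). Over the 50 genes the FPKM summed to 9838, 9397 and 7506 in CT_55 and 8103, 7978 and 6858 in LT_55, so that the temperatures overlapped. In line 102 only 13 of the 50 lay below 0, with sums of 5782 to 6376 in CT_102 and 5445 to 7574 in LT_102. The part of ribosomal RNA carried into the libraries in these values was not tested. Response to chitin, a term of fungal defence, had 10 of 59 genes lower and 1 higher with a median of −0.21, and its lower members include WRKY6 and HSF6 described above. In line 102 this term had 11 lower and 1 higher, with a median of −0.18. The terms chromosome organization (−0.31, 18 genes) and nucleosome (−0.25, 35 genes) were also low, with 32 of the 35 nucleosome genes below 0, 2 past the threshold and 0 without overlap.

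By share of lower genes, the leading GO terms were cuticle development (3 of 15), response to chitin, regulation of cellular respiration and the quercetin 3-O- and 7-O-glucosyltransferase activities (the same counts in both, 11 of 85 lower and 2 higher, median −0.17). The leading pathways were fatty acid elongation (3 of 24 lower), vitamin B6 metabolism (2 of 16), flavone and flavonol biosynthesis (2 of 18, with 1 higher), diterpenoid biosynthesis (2 of 22) and indole alkaloid biosynthesis (2 of 23). Each rests on 3 genes or fewer. By share of higher genes the leading terms held 2 genes at most, among them MAP kinase activity (2 of 19), glycosyl compound metabolic process (2 of 24), DNA-dependent DNA replication (2 of 28), RNA polymerase III (2 of 29), base excision repair (2 of 62), tryptophan metabolism (2 of 63, and 2 lower), the RNA polymerase pathway (2 of 66) and biotin metabolism (1 of 29). Other low pathway medians were those of stilbenoid, diarylheptanoid and gingerol biosynthesis (−0.22, 0 of 33 past the threshold), benzoxazinoid biosynthesis (−0.15, 1 of 15 lower) and linoleic acid metabolism (−0.13, 0 of 20).

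The response of line 55 was then set beside that of line 102 by the contrast between the 2 responses in the same fit, whose libraries are separate. At an adjusted p-value under 0.05 the responses differed in 1 gene (0.00435%), and at an unadjusted one in 1455 genes (6.33%). The gene was LOC100273332 (chromosome 6, 103351592 to 103352548), uncharacterized, which had 14.0, 14.4 and 13.0 FPKM in CT_55 and 12.9, 12 and 11.4 in LT_55. It differed little in line 55 (log2 fold change −0.20, SE 0.13, adjusted p = 1) and fell in line 102 from 60.7, 63.3 and 47.3 to 16.7, 17.8 and 13.3 (−1.84, SE 0.13, adjusted p = 0.00016). None of the 12 genes called in line 55 passed the adjusted test of the difference. The nearest were LOC100382292 and LOC103644214 (both adjusted p = 0.056), with a handful of reads in line 55. Among the 7 better expressed genes, LOC100279536 had the lowest adjusted p-value of the difference (log2 difference −2.62, SE 0.46, adjusted p = 0.143).

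The downregulated genes of line 55 mostly pointed the same way in line 102. Of the 10 called genes, 9 had a negative log2 fold change in line 102, and argonaute 14 (LOC103644214) was the exception with 0.53 (SE 0.15). The median log2 fold change of the 10 was −3.55 in line 55 and −0.72 in line 102. In edgeR's quasi-likelihood test, the unadjusted p-value of the difference was under 0.05 in 9 of them, against 6.33% of all tested genes. They were selected by their change in line 55, which itself widens that gap. LOC103636551 had −0.21 (SE 0.32) in line 102, LOC100284440 −0.49 (SE 0.43) and opr1 −0.67 (SE 0.42). In line 102, gst2 had a log2 fold change of −1.74 (SE 0.46), LOC103635063 of −2.09 (SE 0.46) and LOC100281434 of −0.69 (SE 0.27), and LOC100272434 (−1.06, SE 0.19, adjusted p = 0.0307) passed the adjusted threshold there. Of the 442 lower genes at the unadjusted threshold, 311 (70.4%) had the same sign in line 102 and 124 passed the same threshold in the same direction. The 162 higher genes had the same sign in 98 cases (60.5%), and 4 passed the threshold there, with 56.6% of all tested genes sharing their sign between the lines. Of all 22985 tested genes, 1031 passed that threshold in the lower and 181 in the higher direction in line 102. Several genes named for a list had fold changes of opposite sign in the lines, and none of them passed the adjusted test of the difference. Those with the lowest p-values of the difference are given here. LOC100274132, in the heat shock list, had 16.2, 16.3 and 16.3 FPKM in CT_55 and 10.4, 12.1 and 11.0 in LT_55 (−0.55, SE 0.13) against 0.59 (SE 0.13) in line 102 (adjusted p of the difference 0.0786). Cytosolic fructose-1,6-bisphosphatase (LOC100284739), at 0.45 (SE 0.09) in line 55, had −0.32 (SE 0.09) in line 102 (adjusted p of the difference 0.143).

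**Figure D5:**
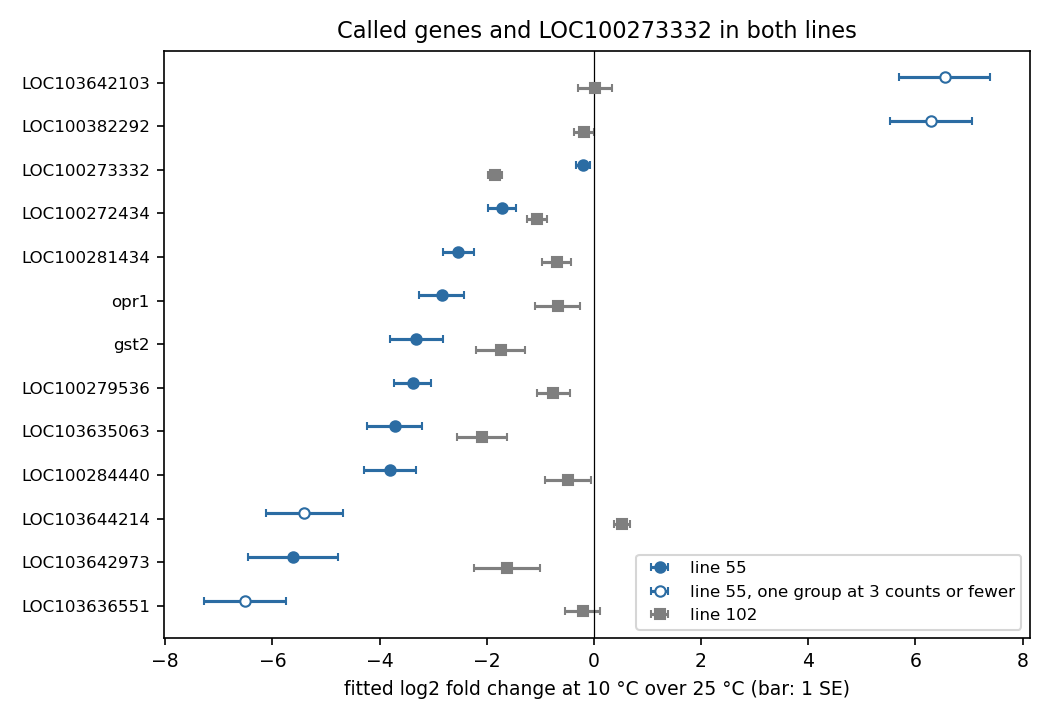
Fitted log2 fold change at 10 °C over 25 °C in line 55 (circles) and line 102 (squares) for the 12 genes called in line 55 and LOC100273332, with bars of 1 SE. Open circles mark genes with a group at 3 counts or fewer, whose fitted value is no bound on the fold, and LOC100273332 lies at −0.20 in line 55 and −1.84 in line 102.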

How the data were processed

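RNA-seq was done on isolated embryos of maize lines 55 and 102 at 25 °C and 10 °C, in 3 biological replicates each (12 poly(A) libraries). Reads were mapped to B73 RefGen_v4, and the submitters' processing notes name HISAT, StringTie and edgeR. The counter, its strand setting and its treatment of multi-mapping reads are not given in the sources used here, so genes with near-identical copies or antisense partners are uncertain. The authors deposited raw counts per gene. The deposited FPKM values, made by the authors, are scaled by gene length and library depth and were used for levels and for the filter on low values.

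Counts were fitted with edgeR 4.0.16 (R 4.3.3, limma 3.58.1), with TMM scaling, glmQLFit and 1 coefficient per group, over all 12 libraries, and each standard error is the absolute log2 fold change divided by the square root of F. The p-values measure the spread between these libraries. The fit was tested on simulated data. The members and lists were chosen with earlier results of these data known. Named genes were, in each direction, up to 12 called genes without overlap and with a mean FPKM of at least 1, by size of change, and up to 6 further ones by level, then for each of 34 lists up to 3 called members or else that with the lowest p-value, and any set of 5 or fewer genes. Genes named outside that rule are stated as such. Lists were matched on descriptions and KEGG terms. The table gives no GO namespace, so all GO terms were used. Alternatives were other filters, scalings, designs, DESeq2 1.42.0, limma on log2 FPKM and fits without a replicate. Promoter sequences and motifs were not used here.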

Additional observations from a re-analysis of the deposited data

Results flagged for a closer look

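LOC100273332 was the 1 gene whose response to 10 °C differed between the lines in edgeR's quasi-likelihood test with adjustment over all genes. The log2 difference, line 55 minus line 102, was 1.65 (SE 0.18, adjusted p = 0.0225), with log2 fold changes of −0.20 in line 55 and −1.84 in line 102. Over 18 settings the difference was 1.6 to 1.69 and its adjusted p-value 4.6e-12 to 0.108, under 0.05 in 14 of them. It exceeded 0.05 without CT_55 replicate 1 (0.0597), LT_55 replicate 1 (0.098), LT_55 replicate 2 (0.0728) or both line 55 libraries of replicate 1 (0.108).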

How the results depend on the processing

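The calls at the adjusted threshold, 2 upregulated and 10 downregulated, depended on the setting. The counts (up, down) were 5 and 18 without a filter on low values, 4 and 17 with median-ratio scaling, 27 and 116 with DESeq2, 1 and 6 with limma on log2(FPKM + 0.1), 0 and 4 with limma on log2(FPKM + 1), and 6 and 23 at an adjusted p-value under 0.1. Counts divided by 4 gave 0 up. The 6 line 55 libraries alone gave 0 and 0, also with the filter applied within them. With a replicate block the counts were 2 and 29 over 12 libraries and 4 and 73 over 6. The block over 12 libraries shared 9 of the 12 calls, lost LOC103642103 (adjusted p = 0.0576), LOC103644214 (0.0638) and LOC100272434 (0.0547), and gained, among named genes, PP2C 35 (LOC103625761, 0.0374), LOC103629615 (0.0426) and ARI7 (LOC109945455, 0.0456). Same-numbered CT_55 and LT_55 libraries had correlations of −0.00858, 0.19 and 0.289 between their deviations from the group means, and CT_55 replicate 1 correlated best with LT_55 replicate 2 (0.104), so the pairing is not established. Leaving out 1 library or replicate number gave 0 to 11 up, 0 to 55 down and 0 to 7 genes differing between the lines. At the unadjusted threshold these fits gave 193 to 387 higher and 349 to 642 lower genes. That threshold was passed by 321 higher genes without the filter, by 78 with the 6 libraries alone, by 50 higher and 270 lower with the filter within them, and by 67 higher and 189 lower with limma on log2(FPKM + 1). Genes differing between the lines numbered 3 with the replicate block, 130 with DESeq2 and 3 with limma on log2(FPKM + 0.1). For the 12 called genes, 236 comparisons with the main value kept the call in 120 and lost it in 116. The 31 other named genes gained a call in 36 of 604. Direction changed in 0 of these. Of the list counts at the unadjusted threshold, 27 moved by over 1.5 times and 41 did not without the line 55 libraries of replicate 3, against 10 and 58 with the block. The cause of these changes was not tested. Small counts limit the 4 called genes with a group at 3 counts or fewer and LOC100272434, which were not called after division of the counts by 4.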

Other observations

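The lowest log2 fold change of all tested genes, −12.33, belonged to LOC111591344, an atherin-like gene with 448 FPKM in CT_55 replicate 1 and 0 in the other 5 line 55 libraries (adjusted p = 0.614). It needed line 102 to enter the test. Non-symbiotic hemoglobin (LOC541815), a protein known to bind nitric oxide, had 31.3, 23.7 and 2.67 FPKM in CT_55 and 0, 4.6 and 0 in LT_55, with overlap (−3.63, adjusted p = 0.633). Ferredoxin-nitrite reductase (LOC542264), which reduces nitrite to ammonium, had 330, 261 and 127 FPKM in CT_55 and 85.4, 94.2 and 58.2 in LT_55, without overlap. Its log2 fold change was −1.61 in line 55 (adjusted p = 0.252) and −1.87 in line 102 (adjusted p = 0.0409). These 3 genes were chosen after their values were seen.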
